A study of Homo sapiens with 16 samples.

Results

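In T-47D cells, 76 of the 13055 genes with a mean of at least 1 CPM were higher at 2 h of estrogen than before treatment and had lost at least 50% of that difference by 8 h. They were selected on these measured values. For each gene, counts were divided by the library total and multiplied by 1000000 to give CPM, and the change at a time point was the log2 ratio of the mean CPM to the mean at 0 h, with 0.5 CPM added to both. A gene was kept when this change was at least 0.4 at 2 h, when the change at 8 h was at most 50% of it, and when both 2 h libraries lay above both 0 h and both 8 h libraries. The T-47D values at 0, 2 and 8 h are therefore a description without a test. The 4 h libraries entered the choice only through the mean CPM, and Ishikawa cells took no part in it.

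Bulk RNA-seq was made from T-47D, a human breast carcinoma line, and Ishikawa, a human endometrial adenocarcinoma line, both of which express the estrogen receptor. By the labels, cells of both lines had been kept for 3 days in medium stripped of hormones, and they then received 10 nM 17β-estradiol (E2) for 2, 4 or 8 h, and the 0 h cells received vehicle. Each line had 2 libraries at each of 4 time points, 16 in all, and the count tables listed 26364 genes. The methods of the study give a longer time in such medium than the labels do. No vehicle library of 2, 4 or 8 h was part of the design, so E2 and time in fresh treatment medium cannot be told apart, and the labels do not say whether the 2 libraries of a time point came from separate cultures.

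E2 binds the estrogen receptor, a nuclear receptor that is recruited to enhancers and changes transcription of nearby genes within the first hours. In breast cells, many known target transcripts stay high while the hormone is present. A transcript that rises and returns is classically seen for immediate-early genes, which encode transcription factors and feedback regulators with short-lived messenger RNA and are switched on briefly by growth factor signalling.

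Library totals ranged from 41177912 to 64148903 counts. The lines matched their labels: GATA3 had a median of 1124 CPM in T-47D and 0.0421 CPM in Ishikawa libraries, and PAX8 had 0 and 238 CPM. ESR1, which encodes the estrogen receptor, had a median of 189 CPM in T-47D and 193 CPM in Ishikawa. The Ishikawa libraries of 4 h and 8 h did not separate by their labels. Only 2 genes differed between them in edgeR at an adjusted p under 0.05, with 554 at an unadjusted p under 0.05 and 2 in DESeq2, against 533 genes by edgeR between 4 h and 8 h in T-47D. Later time points in Ishikawa are therefore given mainly as 4-8 h, the mean of both. A full exchange of the 4 h and 8 h labels would not change this mean. An exchange of single libraries could alter it, and also the spread within time points. The fit took that spread from all 4 time points, so standard errors and p-values at 2 h would change too.

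In bulk RNA, fewer expressing cells and less RNA per cell cannot be told apart. In T-47D the median log2 change of the members was 0.58 after 2 h, with 0.28 after 4 h and 0.15 after 8 h. Another 344 genes were induced at 2 h by the same limit but did not meet the whole rule. Some of these had partly declined. In 87 of them only the limit on the 8 h change was missed, and both 8 h libraries lay below both 2 h libraries. Medians over all 344 were 0.61, 0.73 and 0.78. Both sets of genes thus had a similar change at 2 h and differed afterwards, as the rule required for 8 h. Members were low genes. Their median level over the 8 T-47D libraries was 6.46 CPM against 31.6 CPM for all genes with a mean of at least 1 CPM. The 344 other induced genes were also low, at a median of 11.8 CPM over the 8 libraries. At 0 h their median was 6.28 CPM against 5.79 CPM in members. Of the 76 members, 18 had a mean under 2 CPM. This was so in 51 of the 344 other induced genes and in 6.76% of all genes of at least 1 CPM. In most members, the 2 replicates of 2 h lay close together, within 1.2-fold of each other in 67 of 76. The rule asked both 2 h libraries to lie above those of 0 h and 8 h, so this closeness is in part fixed by it. edgeR's fit across all 15594 T-47D genes called 59 of the 76 as higher at 2 h than at 0 h, a contrast the rule itself used, with 4.90% of all genes called in this direction.

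**Figure D1:**
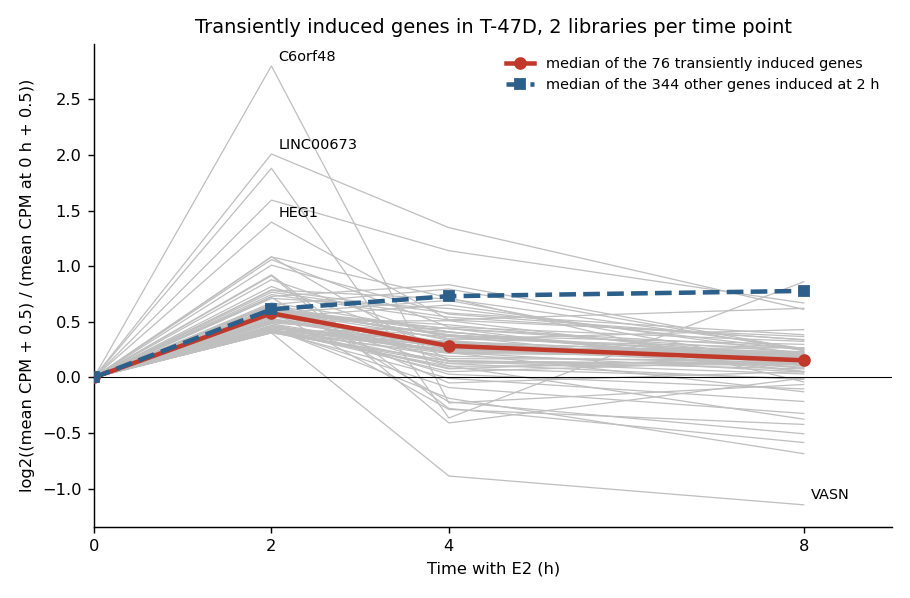
Change in mean CPM (log2, 0.5 CPM added, 2 libraries per time point) against hours with E2 in T-47D cells. Grey lines are the 76 transiently induced genes, the red line is their median and the dashed blue line is the median of the 344 other genes induced at 2 h, which parts from the red line after 2 h (0.78 against 0.15 at 8 h).

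Most members had a modest change at 2 h, and 9 of the 76 reached a log2 change of 1. The clearest of these at high level was HEG1, a transmembrane receptor of endothelial junctions on chr3:124684554-124774841 (GENCODE on GRCh37, minus strand). The 2 libraries of a time point are called its pair. HEG1 had 42.9 and 45.7 CPM in the 0 h pair, 114 and 121 in the 2 h pair, 63.7 in both 4 h libraries, and 69.0 and 67.9 in the 8 h pair. The mean of 117 ± 4.83 CPM at 2 h (SD, n = 2) was 2.65-fold that at 0 h, and HEG1 stayed between the 0 h and 2 h levels afterwards.

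TSKU, a secreted small leucine-rich proteoglycan that modulates several growth factor pathways, lies on chr11:76493295-76509197 on the plus strand. It was 22.9 and 18.7 CPM in the 0 h pair, 43.7 and 45.7 in the 2 h pair, 22.4 and 24.0 in the 4 h pair and 23.3 and 20.7 in the 8 h pair. TSKU had thus returned by 4 h, when 1 library lay within the 0 h range and the other just above it. CBFA2T3, a transcriptional corepressor of the ETO family on chr16:88941266-89043615 (minus strand), had 59.8 and 56.7 CPM in the 0 h pair, 113 and 123 in the 2 h pair, 85.5 and 87.8 in the 4 h pair and 76.3 and 71.1 in the 8 h pair. Its decline was more gradual, with each later time point below the one before and none overlapping.

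LINC00673, a long noncoding RNA, had 0.787 and 1.12 CPM in the 0 h pair and 5.10 and 5.59 in the 2 h pair. It was then 3.62 and 2.77 CPM in the 4 h pair and 1.69 and 1.74 in the 8 h pair. SERPINA10, an inhibitor of coagulation proteases, followed the same order at a like level, with 0.944 and 0.946 CPM in the 0 h pair, 3.76 and 3.97 in the 2 h pair, 2.37 and 3.00 in the 4 h pair and 1.81 and 1.78 in the 8 h pair. Both were low genes whose 8 h libraries still lay above both 0 h libraries.

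The remaining members with a log2 change of at least 1 were ZSWIM6, GATSL2, XAGE2 and C6orf48. ZSWIM6 had 8.43 and 9.51 CPM in the 0 h pair and 17.7 and 20.7 in the 2 h pair, and was at 10.9 and 11.8 by 8 h. FAM102A, with a log2 change of 0.82 and the most abundant of the 15 largest changes, had 161 and 159 CPM in the 0 h pair, 279 and 285 in the 2 h pair, 191 and 192 in the 4 h pair and 189 and 184 in the 8 h pair. SNORA25, a small nucleolar RNA, had 0.899 and 0.776 CPM in the 0 h pair and 1.88 and 1.74 in the 2 h pair. GATSL2 had 2.05 and 1.90 CPM in the 2 h pair and one of its 4 h libraries, at 1.99, was as high as that, while the other was at 0.842. C6orf48, the host gene of a small nucleolar RNA, had the largest change of all members, and its 2 h libraries differed 12.0-fold.

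C6orf48 was at 38.2 CPM in replicate 1 of 2 h and at 3.17 in replicate 2, against 2.74 and 2.33 in the 0 h pair and between 1.93 and 2.81 in the 4 later libraries. The log2 change of 2.80 was therefore that of a single library. XAGE2, a cancer-testis antigen, was also uneven, with 3.14 and 4.95 CPM in the 2 h pair and 2.37 and 1.11 in the 8 h pair. Between these it was at 0.452 and 0.465 CPM in the 4 h pair, below the 0.764 and 0.703 of the 0 h pair. YTHDC1, a nuclear reader of methylated RNA, was uneven later, with 27.5 and 25.5 CPM in the 2 h pair, 4.22 and 24.0 in the 4 h pair and 8.67 and 16.9 in the 8 h pair.

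**Figure D2:**
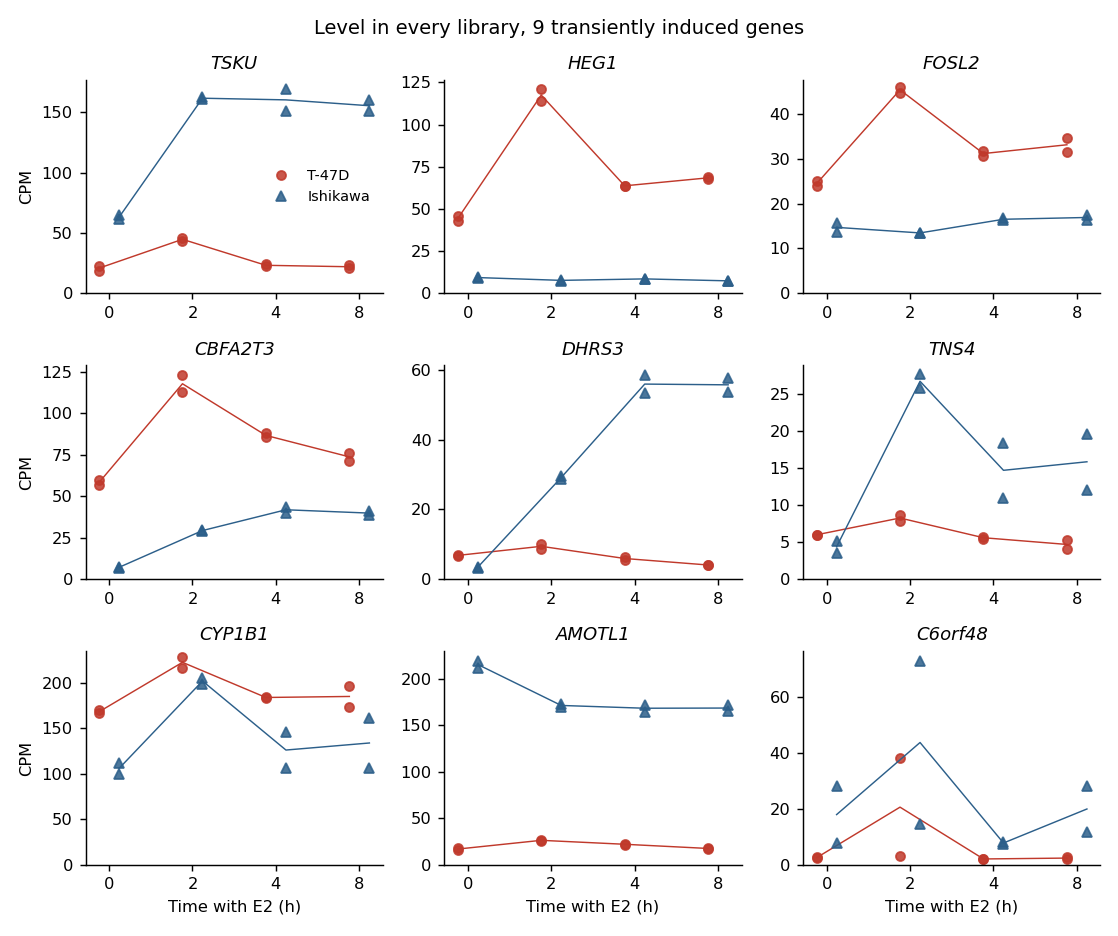
CPM in every library against hours with E2 (evenly spaced, axis from 0) for 9 members, with T-47D as red circles and Ishikawa as blue triangles, and lines through the means of 2 libraries. TSKU returned in T-47D by 4 h but stayed near 151 to 169 CPM in Ishikawa, and the high C6orf48 values each come from 1 of 2 libraries.

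The 4 h libraries already lay mostly between the peak and the start. Both 4 h libraries were below both 2 h libraries in 60 of 76 members, compared with 23.3% of all genes of at least 1 CPM, and with 82 of the 344 other induced genes. Both were still above both 0 h libraries in 53 of 76 members, compared with 32.3% of all genes and 338 of the 344. Both lay below both 0 h libraries in 8 of 76 members, compared with 31.3% of all genes and 0 of the 344. The rule had chosen 2 h libraries that were high, and the 4 h and 2 h changes share their 0 h libraries, so these counts are in part fixed by the choice of members. In 33 of the 76 members the change at 4 h was at most 50% of that at 2 h, the limit the rule set for 8 h. This was so in 14 of the 344 other induced genes. Over all genes of at least 1 CPM the share was 48.7%, but these include genes that did not rise at 2 h.

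A few members were higher at 4 h than at 2 h. In 6 of the 76 the 4 h change was above that at 2 h, and the largest differences were in SYBU, ADM5 and PDE8B. The 4 h change was the higher one in 191 of the 344 other induced genes and in 51.2% of all genes of at least 1 CPM. SYBU, which encodes syntabulin, a linker of transport cargo to kinesin, had 4.25 and 4.37 CPM in the 0 h pair, 7.55 and 6.60 in the 2 h pair, 7.26 and 8.42 in the 4 h pair and 5.34 and 5.01 in the 8 h pair. PDE8B, a cyclic AMP phosphodiesterase, had 7.11 and 6.22 CPM in the 2 h pair and 6.69 and 7.74 in the 4 h pair. In both, the 2 h and 4 h libraries overlapped. Both 4 h libraries lay above both 2 h libraries in 1 of the 76, against 142 of the 344 other induced genes and 26.5% of all genes. This was PITPNM2, a phosphatidylinositol transfer family protein named after its values were seen. It had 5.42 and 5.16 CPM in the 2 h pair and 5.92 and 5.54 in the 4 h pair.

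**Figure D3:**
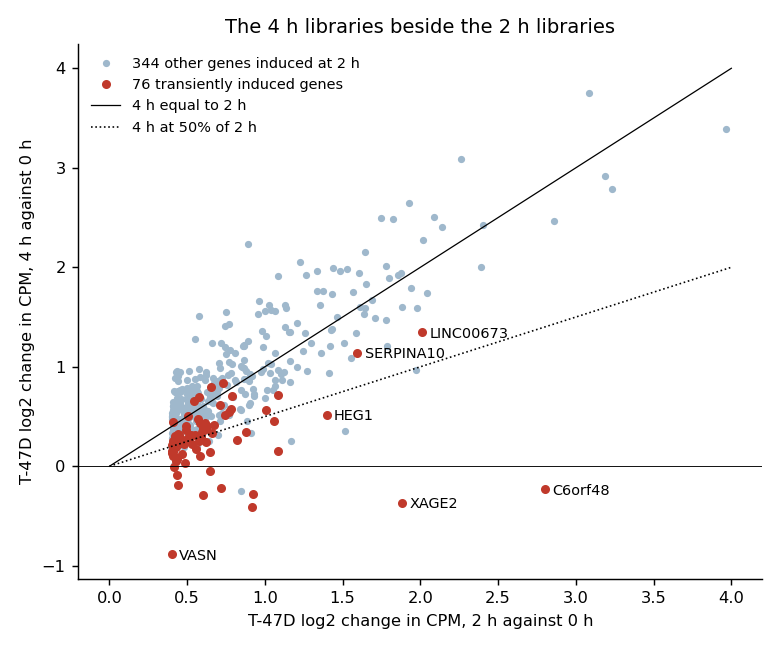
Change in T-47D at 4 h against change at 2 h (log2 CPM ratio to 0 h, 0.5 CPM added), one point per gene, red for the 76 members and pale blue for the 344 other genes induced at 2 h. The solid line marks equal change and the dotted line 50% of it. On or below the dotted line lie 33 members and 14 of the 344 other genes.

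By 8 h, the members were at different distances from their starting level. Both 8 h libraries lay above both 0 h libraries in 37 of the 76 members and below both in 8, and in the other 31 they overlapped. Over all genes of at least 1 CPM, 31.0% lay above and 32.3% below. The limit on the change at 8 h was part of the rule, so nothing is read from these counts. The log2 change at 8 h was -0.4 or lower in 5 members. VASN, a membrane protein that binds TGF-beta, went furthest, with 24.7 and 23.9 CPM in the 0 h pair, 31.7 and 32.8 in the 2 h pair, 12.4 and 13.4 in the 4 h pair and 11.5 and 9.89 in the 8 h pair. The log2 change of VASN was 0.40 at 2 h and -1.15 at 8 h.

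DHRS3, a retinal reductase that limits retinoic acid formation, had 6.88 and 6.67 CPM in the 0 h pair, 8.72 and 10.0 in the 2 h pair, 6.30 and 5.48 in the 4 h pair and 3.99 and 4.06 in the 8 h pair. TMPRSS2, a transmembrane serine protease known as an androgen target, had 5.55 and 5.65 CPM in the 0 h pair, 11.5 and 10.6 in the 2 h pair and 3.85 and 3.29 in the 8 h pair. PRKCD, the delta isoform of protein kinase C, had 29.4 and 28.6 CPM in the 0 h pair, 46.3 and 49.8 in the 2 h pair and 21.3 and 19.2 in the 8 h pair. In these genes the 8 h libraries were below both 0 h libraries, whereas YTHDC1, the last of the 5, had 1 of its 8 h libraries inside the 0 h range of 15.6 to 19.1 CPM.

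Of 42 listed immediate-early genes, 35 had at least 1 CPM in T-47D and 3 were members, whereas the rule kept 0.582% of all genes of at least 1 CPM. No test was made of this difference. FOSL2, an AP-1 subunit, had 23.9 and 24.9 CPM in the 0 h pair, 44.7 and 46.0 in the 2 h pair, 30.6 and 31.7 in the 4 h pair and 34.7 and 31.5 in the 8 h pair. NR4A2, an orphan nuclear receptor, and MAFF, a small MAF transcription factor, were near the limit of 1 CPM, with 1.38 CPM in both 2 h libraries and 2.09 and 2.30 CPM in the 2 h pair, respectively. In edgeR, 7 of the 35 were called higher and 12 lower at 2 h in T-47D, and their median log2 change in CPM was -0.21.

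Of 43 classical estrogen targets on a second list, 41 had at least 1 CPM, 33 were called higher at 2 h, and TIPARP and SYBU met the rule. The median log2 change of these 41 was 0.87 at 2 h and 1.00 at 8 h. SLC2A1, the glucose transporter GLUT1, was the only member on a list of glucose, hypoxia and handling genes, with 60.1 and 58.2 CPM in the 0 h pair, 103 and 101 in the 2 h pair, 85.8 and 91.5 in the 4 h pair and 79.0 and 75.6 in the 8 h pair. No member was on the other lists, which at the 0.582% over all genes would each be likely to hold none. They were the 22 measured MAPK feedback genes, 15 TGF-beta and BMP feedback genes, 13 Notch and WNT feedback genes, 15 cyclic AMP and clock genes, 6 EGF-family ligands, 11 NF-kB and cytokine genes, 17 heat shock and stress genes, 12 p53 targets, 12 listed snoRNA host genes and 23 ribosome biogenesis genes. The list of snoRNA host genes did not hold C6orf48, a member that is also such a host gene.

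The same genes were then followed in Ishikawa cells. Of the 76, 72 passed edgeR's filter on low counts there. XAGE2 and SERPINA10 had no count in any Ishikawa library, and BARX2 reached at most 0.242 CPM and DLC1 0.102 CPM. At 2 h against 0 h, edgeR called 17 of the 72 as higher (23.6%), against 2.61% of all 15787 genes tested and 66 of the 313 tested among the other genes induced in T-47D (21.1%). It called 4 of the 72 as lower, against 1.74% of all genes. The median log2 fold change of the 72 was 0.08, and 45 of the 72 passed neither this test nor that of the later change from 2 h to 4-8 h.

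DHRS3 rose most. It had 3.22 and 3.59 CPM in the 0 h pair, 29.6 and 28.7 in the 2 h pair, 58.5 and 53.3 in the 4 h pair and 53.7 and 57.7 in the 8 h pair, a log2 fold change of 3.11 ± 0.101 from 0 h to 2 h (SE, edgeR adjusted p = 3.11e-11). It then rose by a further 0.96 ± 0.0714 from 2 h to 4-8 h (edgeR adjusted p = 4.6e-06). DHRS3 was thus below its starting level by 8 h in T-47D and had the largest rise of the 72 members in Ishikawa.

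TNS4, a tensin family adaptor of focal adhesions, had 3.55 and 5.17 CPM in the 0 h pair in Ishikawa, 27.6 and 25.8 in the 2 h pair, 11.0 and 18.4 in the 4 h pair and 19.7 and 12.0 in the 8 h pair. From 0 h to 2 h it rose by 2.63 ± 0.238 on the log2 scale (edgeR adjusted p = 3.03e-06), and it then fell by 0.78 (edgeR adjusted p = 0.0209). In T-47D it had 5.96 and 5.99 CPM in the 0 h pair and 7.82 and 8.66 in the 2 h pair. TNS4 was thus high at 2 h and lower later in both lines, with the larger change in Ishikawa, where every later library stayed above both 0 h libraries.

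CACNA1I, a T-type calcium channel subunit, rose in Ishikawa from 1.25 and 1.71 CPM in the 0 h pair to 7.83 and 6.87 in the 2 h pair and was between 10.4 and 11.8 in the later libraries. CBFA2T3 rose from 6.59 and 7.51 CPM to 29.1 and 29.4 and lay between 38.7 and 43.5 later. KAZN, which encodes kazrin, a protein of cell junctions, rose from a mean of 94.1 ± 8.25 CPM (SD, n = 2) to 250.2 and 255 and lay between 306 and 364 later. In all 3, every 4 h and 8 h library was above both 2 h libraries.

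SLC22A5, a carnitine transporter, also went on rising in Ishikawa, from 26.8 and 27.8 CPM in the 0 h pair through 42.5 in both libraries at 2 h to between 48.1 and 58.5 later. TSKU rose from 61.2 and 64.8 CPM to 161 and 162 in the 2 h pair, and its change from there to 4-8 h was -0.01 ± 0.0583 (edgeR adjusted p = 0.948). The other 10 members called higher at 2 h were GATSL2, TIPARP, CYP1B1, CHD9, TMPRSS2, VASN, INAFM2, MOB3B, LINC00673 and FAM102A, with log2 fold changes from 0.33 in FAM102A to 1.46 in GATSL2. Of all 17, 12 were called in every fit that left out 1 Ishikawa library, and these were DHRS3, TNS4, CACNA1I, CBFA2T3, KAZN, TSKU, TIPARP, CHD9, TMPRSS2, SLC22A5, VASN and INAFM2.

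From 2 h to 4-8 h in Ishikawa, 9 of the 72 members were called lower (12.5%), against 2.39% of all genes, and 7 were called higher (9.72%), against 2.13%. Among the 313 other induced genes, 8 were called lower and 26 higher. The 9 that fell were C6orf48, TNS4, CYP1B1, AFF1, LINC00673, PRKCD, CHD9, TIPARP and RUSC2, and the 7 that rose were DDT, DHRS3, CACNA1I, CBFA2T3, KAZN, SLC22A5 and FOSL2. Both counts were smaller when either 2 h library was left out, and fewer members were called lower without replicate 1 of 4 h. Such a fit leaves 1 library at that time point, and the cause of the smaller counts was not tested.

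C6orf48 was uneven between Ishikawa libraries, with 14.7 and 73.0 CPM in the 2 h pair and between 7.44 and 28.3 in the later libraries. DDT was higher only in the 8 h pair, at 10.4 and 16.6 CPM. It had 4.55 and 3.55 CPM in the 0 h pair, 3.44 and 3.92 in the 2 h pair and 4.25 and 3.75 in the 4 h pair. Its call from 2 h to 4-8 h thus came from the 8 h pair.

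Only AFF1 was called lower in every fit that left out 1 library. AFF1, a subunit of the super elongation complex, had 275 and 278 CPM in the 0 h pair in Ishikawa, 257 and 273 in the 2 h pair, 178 and 192 in the 4 h pair and 192 and 196 in the 8 h pair. Its fall of 0.46 ± 0.0477 on the log2 scale (edgeR adjusted p = 5.97e-05) therefore did not follow a rise. DHRS3, KAZN and CBFA2T3 were called higher in every such fit.

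**Figure D4:**
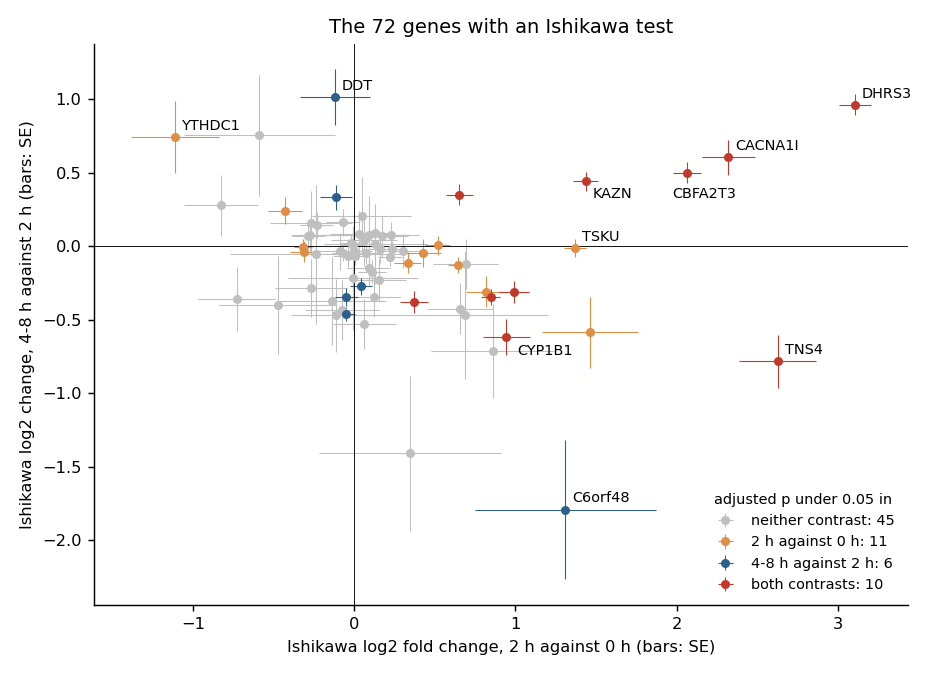
Ishikawa log2 change from 2 h to 4-8 h against the log2 fold change at 2 h (edgeR, bars are SE) for the 72 members tested, coloured by which contrast passed an adjusted p of 0.05. The 10 red points passed both, 5 of them above 0 on the vertical axis (such as DHRS3 at 0.96) and 5 below (such as TNS4 at -0.78).

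A rise at 2 h followed by a fall was thus seen in 5 of the 17 members that rose in Ishikawa. These were LINC00673, CHD9, TIPARP, CYP1B1 and TNS4. A further 5 of the 17 rose again, and 15 of the 17 were called higher at 4-8 h than at 0 h. Among the 355 genes of at least 1 CPM in T-47D that were called higher in Ishikawa at 2 h, 12.7% were then lower, 14.9% were higher again and 91.0% were called higher at 4-8 h than at 0 h. Of the 66 other genes called higher in Ishikawa at 2 h, 7 were then called lower. Whether the share among members differed from that among the other genes was not tested.

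CYP1B1, a cytochrome P450 that hydroxylates estradiol, lies on chr2:38294116-38337044 on the minus strand. In T-47D it had 170 and 166 CPM in the 0 h pair, 216 and 228 in the 2 h pair, 184 and 183 in the 4 h pair and 173 and 196 in the 8 h pair. In Ishikawa it had 111 and 100.1 CPM in the 0 h pair, 198 and 205 in the 2 h pair, 106 and 146 in the 4 h pair and 161 and 106 in the 8 h pair, with a log2 fold change of 0.94 ± 0.146 at 2 h (edgeR adjusted p = 0.000779) and a fall of 0.61 ± 0.122 afterwards (edgeR adjusted p = 0.00987).

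TIPARP, an ADP-ribosyltransferase that represses the aryl hydrocarbon receptor, had 45.8 and 45.5 CPM in the 0 h pair in T-47D, 62.0 and 59.6 in the 2 h pair, 49.4 and 48.5 in the 4 h pair and 48.4 and 50.7 in the 8 h pair. In Ishikawa it had 26.8 and 22.7 CPM in the 0 h pair, 48.1 and 49.4 in the 2 h pair, 35.6 and 38.3 in the 4 h pair and 43.6 and 37.4 in the 8 h pair. The later Ishikawa libraries of TIPARP stayed above both 0 h libraries, while those of CYP1B1 overlapped them. CHD9, a chromatin remodeller, had 53.0 and 52.5 CPM in the 0 h pair, 77.8 and 80.2 in the 2 h pair and 55.0 and 59.7 in the 8 h pair in T-47D, and 73.6 and 69.7, 127 and 128, and 102 and 97.5 in Ishikawa.

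The 4 members called lower in Ishikawa at 2 h were YTHDC1, AKNA, AMOTL1 and NFATC2. AMOTL1, an angiomotin that binds YAP at cell junctions, had 219 and 211 CPM in the 0 h pair and 169 and 173 in the 2 h pair, with a log2 fold change of -0.32 ± 0.0576 (edgeR adjusted p = 0.0031), and remained between 164 and 172 later. In T-47D its level was lower and its change had the other sign, from 15.5 and 18.3 CPM in the 0 h pair to 25.6 and 26.9 in the 2 h pair. NFATC2, a calcium-dependent transcription factor, had 27.1 and 27.5 CPM in the 0 h pair and 20.6 and 22.8 in the 2 h pair in Ishikawa, against 7.06 and 8.51 and 10.2 and 11.6 in T-47D.

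YTHDC1 had 15.1 and 37.5 CPM in the 0 h pair in Ishikawa, so its fall rested on replicate 2 of 0 h. None of these 4 was called without replicate 1 or without replicate 2 of 2 h, and 1 was called without replicate 2 of 0 h. FOSL2, by contrast with T-47D, was at 13.7 and 15.6 CPM in the 0 h pair, 13.5 and 13.4 in the 2 h pair and between 16.3 and 17.4 later, and NR4A2 had 4.34 and 5.04 CPM in the 0 h pair and 2.11 and 3.08 in the 2 h pair (edgeR adjusted p = 0.0557). HEG1, one of the largest changes in T-47D, had 9.20 and 9.42 CPM in the 0 h pair and 8.16 and 7.13 in the 2 h pair in Ishikawa (edgeR adjusted p = 0.263).

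With the labels taken as given, 13 members were called higher and 5 lower in Ishikawa at 4 h against 0 h, against 7.66% and 6.60% of all genes. At 8 h, 17 were higher and 8 lower, against 12.0% and 10.1% of all genes. The rule applied to Ishikawa itself kept 59 of 13265 genes (0.445%). Only KCNK6 and CYP1B1 met it in both lines, 2.63% of the T-47D genes and 3.39% of the Ishikawa genes. KCNK6, a potassium channel, had 42.7 and 47.9 CPM in the 0 h pair, 73.8 and 78.7 in the 2 h pair and 58.7 and 58.5 in the 8 h pair in T-47D, and 4.07 and 5.32, 7.43 and 7.24, and 6.38 and 4.44 in Ishikawa, where its rise at 2 h did not pass the test (edgeR adjusted p = 0.0918).

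Some members overlapped other genes. Exons of 14 of the 74 members found in GENCODE overlapped those of another measured gene, on the opposite strand only in 13, and the sources used here do not state whether counting used strand. RMDN2, a member outside the genes named by rule, overlapped CYP1B1 in this way, with starts 143786 bases apart, and had 1.10 and 1.43 CPM in the 0 h pair and 1.92 and 2.42 in the 2 h pair in T-47D. DDT, a homologue of the cytokine MIF, overlapped DDTL and had 2.36 and 2.35 CPM in the 0 h pair, 5.10 and 4.67 in the 2 h pair and 1.71 and 1.59 in the 4 h pair in T-47D. Values of XAGE2, GATSL2, DDT, HLA-C and the pseudogenes BMS1P5 and BMS1P6 are uncertain because these genes have close copies or relatives whose reads the counting could have split.

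Gene structure of the members was near that of all 13055 genes. Of the 74 matched, 68 were protein coding (91.9% against 94.7% of matched genes), the median was 8 exons against 9, and the median gene span was 40056 bases against 32428. The 3′ UTR of the canonical transcript was longer, with a median of 2121 bases over 65 members against 1377 bases. AU-rich elements, sequence motifs of unstable transcripts, were counted in it. The 7-base motif TATTTAT was present in 52.3% of members against 36.5% of genes, a share not adjusted for the longer 3′ UTR. The number of the 5-base motif ATTTA per kilobase, which is adjusted for length, had a median of 1.62 against 1.72.

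Promoter sequences from RefSeq (GRCh38.p14) were at hand for 58 of the 76 members, with 94 start sites. Motifs were searched as exact letters on both strands from 250 bases before to 50 bases after each start. A full estrogen response element, GGTCANNNTGACC, was in no member window and in 0.0570% of all 35116 windows. Of the 15015 windows of genes with at least 1 CPM in T-47D, it was in 0.0133%. One arm of it, GGTCA, was in 30.9% of member windows against 34.3% of the windows of these genes and 37.4% of all windows. In the same order, the AP-1 site TGANTCA was in 6.38%, 5.10% and 7.71%, the CRE TGACGTCA in 2.13%, 2.84% and 1.85%, and the E-box CACGTG in 9.57%, 9.36% and 7.26%. The GC box GGGCGG was in 62.8%, 66.0% and 45.0% and the aryl hydrocarbon receptor core GCGTG in 43.6%, 48.7% and 36.5%, so for both the members were above all windows but below those of the measured genes. GGTCA lies within the full element. The TATA box TATAAA, searched on the gene strand between 40 and 16 bases before the start, was in 3.19%, 1.46% and 2.30%, and the CArG box in 3.19%, 1.11% and 1.29%, which in the members is 3 windows each.

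TATA boxes, CArG boxes and CREs are motifs often found before rapidly induced genes. They were present in the 150 bases before a start in 8 members. The promoters of 5 are shown, leaving out YTHDC1 and C6orf48, whose libraries were uneven, and SSPN, which no result turns on, so that each motif can be read in its place. Capitals mark TATAAA in SLC2A1, C2CD4A and NFATC2, CACGTG also in C2CD4A, the CArG box in INAFM2 and the CRE in MAFF.
SLC2A1, chr1:42958869-42959018, minus strand: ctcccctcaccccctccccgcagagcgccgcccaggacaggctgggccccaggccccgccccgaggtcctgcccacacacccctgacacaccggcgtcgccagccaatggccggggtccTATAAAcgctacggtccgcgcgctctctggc
C2CD4A, chr15:62066827-62066976, plus strand: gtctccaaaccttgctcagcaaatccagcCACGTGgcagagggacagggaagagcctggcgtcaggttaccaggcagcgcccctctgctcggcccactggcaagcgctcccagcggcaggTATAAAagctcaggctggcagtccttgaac
NFATC2, chr20:51562840-51562989, minus strand: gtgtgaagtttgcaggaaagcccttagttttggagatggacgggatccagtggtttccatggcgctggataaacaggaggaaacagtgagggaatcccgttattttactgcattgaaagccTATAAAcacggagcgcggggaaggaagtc
INAFM2, chr15:40323542-40323691, plus strand: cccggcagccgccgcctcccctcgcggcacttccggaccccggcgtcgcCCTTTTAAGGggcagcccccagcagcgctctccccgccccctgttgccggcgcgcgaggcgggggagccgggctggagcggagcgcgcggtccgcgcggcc
MAFF, chr22:38201844-38201993, plus strand: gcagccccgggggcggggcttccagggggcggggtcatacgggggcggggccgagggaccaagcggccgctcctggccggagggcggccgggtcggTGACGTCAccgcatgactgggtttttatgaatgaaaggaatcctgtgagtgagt
These 5 genes did not share a course in Ishikawa cells. INAFM2 was called higher at 2 h, with 25.0 and 23.0 CPM in the 0 h pair and 34.1 and 34.0 in the 2 h pair, NFATC2 was called lower, and SLC2A1 had 203 and 216 CPM in the 0 h pair and 241 and 246 in the 2 h pair (edgeR adjusted p = 0.0502). C2CD4A and MAFF were low there, at most 0.807 and 2.01 CPM.

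The limits of the rule passed close to several members. FKBP11 and VASN had a log2 change at 2 h of 0.401, and DCDC2B and ENPP3 just missed it with 0.397. IPPK and ARHGEF26 kept 49.4% of their 2 h change at 8 h, against 51.0% in IRX2 and 51.2% in OSGIN1, which were left out. MIRLET7DHG and NR4A2 had mean levels of 1.01 CPM, against 0.989 in PLK5 and 0.936 in ESR2. The lowest 2 h library was 1.01-fold the highest 0 h library in C2CD4A and 1.04-fold in TAPBP, and 1.03-fold and 1.04-fold the highest 8 h library in C2CD4A and PDE8B. A mirror rule for genes that were lower at 2 h and returned kept 55 genes.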

How the data were processed

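Bulk RNA-seq of 8 T-47D and 8 Ishikawa libraries was used. The deposited values are raw counts per gene, not normalized, in 1 table per cell line. They were made by the authors with HISAT2 (genome build hg19), SAMtools and featureCounts, on the gene models of UCSC Known Genes. Tool versions, the strand setting and the handling of read pairs and multiply mapped reads are not given in the sources used here. Even numbers made up 71.2% to 74.6% of counts between 1 and 10, so 1 count need not be 1 fragment.

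CPM used column totals. Tests used edgeR 4.0.16 in R 4.3.3 on the counts of each line (filterByExpr, TMM scaling, time point as a factor with 4 levels, quasi-likelihood F-test, Benjamini-Hochberg over all genes tested, threshold 0.05), with 15594 genes in T-47D and 15787 in Ishikawa. Each standard error was derived as the absolute log2 fold change over the root of its F statistic. The fit was also run on simulated Ishikawa counts with known changes at 2 h, drawn from its own estimates of spread. Such counts do not represent uneven libraries or uncertain time labels, so nothing is read from them about either. DESeq2 1.42.0 was an alternative, beside other scalings, pseudocounts, filters, thresholds, a replicate block and leaving out each library.

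The members, gene lists and tests were chosen with earlier results of these data known. Named genes were the 15 members with the largest 2 h change, members on a list, members called in Ishikawa (up to 10 per direction), members next to a limit of the rule, the 3 highest and the 3 lowest from 2 h to 4 h, and members that met the rule in Ishikawa. Not every gene so selected is described. Gene positions, exons and 3′ UTRs came from GENCODE on GRCh37, which matched 74 members (2 through an older symbol), and promoters from RefSeq on GRCh38.p14. P-values set a difference against the spread between libraries of the same time point, estimated together over the 4 time points of a line. Replicates differed by more than counting noise in every pair.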

Additional observations from a re-analysis of the deposited data

Results flagged for a closer look

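Opposite movement between the cell lines was of 2 kinds, and the difference between the lines was not tested in either. At 2 h, both T-47D libraries lay above both 0 h libraries in every member by the rule, whereas in 15 tested members both Ishikawa 2 h libraries lay below both 0 h libraries. Their Ishikawa log2 fold changes were -1.11 in YTHDC1, -0.83 in NR4A2, -0.73 in PPFIA4, -0.59 in C2CD4A, -0.43 in AKNA, -0.32 in AMOTL1, -0.31 in NFATC2, -0.29 in PISD, -0.27 in HEG1 and -0.27 in STARD5, and smaller in PITPNM2 (-0.23), FOSL2 (-0.12), CDON (-0.0716), AFF1 (-0.0499) and TTC39B (-0.0364). The share of 20.8% of the 72 tested members was below the 26.0% of all 15787 genes tested, so the count is no result about the members. Only YTHDC1, AKNA, AMOTL1 and NFATC2 passed the Ishikawa test.

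From 2 h on, both T-47D 8 h libraries lay below both 2 h libraries by the rule, whereas in 9 members all 4 Ishikawa libraries of 4 h and 8 h lay above both 2 h libraries. The Ishikawa log2 changes from 2 h to 4-8 h were 0.96 in DHRS3, 0.75 in YTHDC1, 0.61 in CACNA1I, 0.50 in CBFA2T3, 0.44 in KAZN, 0.35 in SLC22A5, 0.34 in FOSL2, 0.24 in AKNA and 0.14 in PITPNM2. These 9 were 12.5% of the 72, against 12.8% of all genes tested, so this count is likewise near the background. YTHDC1, AKNA and PITPNM2 did not pass the Ishikawa test of this change.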

How the results depend on the processing

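The number of transiently induced genes, 76, was 46 with a pseudocount of 2 CPM, 47 with a mean of at least 5 CPM and 137 with no filter, and it was 48 with the mean of 4 h and 8 h in place of 8 h. It stayed between 71 and 92 under TMM or DESeq2 scaling or a pseudocount of 0.1 CPM, and between 75 and 112 when 1 library was left out. Membership changed more than the number: 51 of the 76 remained without replicate 2 of 2 h, 58 without replicate 2 of 0 h, 60 without replicate 1 of 0 h or replicate 2 of 8 h, 67 without replicate 1 of 8 h and 69 without replicate 1 of 2 h. In Ishikawa, the count of members higher at 2 h was between 13 and 21 in all fits run. At an adjusted p under 0.01, members lower at 2 h numbered 1 and members lower at 4-8 h than at 2 h numbered 4. With 1 library left out, where the lone library of a time point is assumed to vary like the others, the counts ranged from 0 to 5 lower at 2 h, from 2 to 10 lower at 4-8 h and from 3 to 8 higher at 4-8 h. The cause was not tested. With a replicate block the counts were 17 higher and 3 lower at 2 h, and 8 lower and 7 higher at 4-8 h. The replicate numbers did not mark a pairing, with correlations of the replicate differences from -0.0547 to 0.0595 in T-47D and from -0.114 to 0.0533 in Ishikawa. No value of the 41 named members with an Ishikawa test was called in the opposite direction in any alternative.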

Other observations

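TIPARP and CYP1B1 are both known targets of the aryl hydrocarbon receptor, and other genes of that pathway were looked up after these values were seen, so the following is a description without a test. CYP1A1, its best known target, did not follow them. It had 6.02 and 8.13 CPM at 0 h in T-47D and was 5.63 and 5.70 after 2 h and 3.13 and 3.74 after 8 h. In Ishikawa the CYP1A1 level was 43.6 and 48.9 CPM in the 0 h libraries, 33.9 and 34.9 after 2 h and between 13.6 and 18.9 in the later libraries, so it was lower in every treated library while TIPARP and CYP1B1 were higher at 2 h. AHR itself was between 78.0 and 89.1 CPM in all T-47D libraries and between 28.1 and 34.2 CPM in all Ishikawa libraries. NQO1 had a log2 change of 0.02 in T-47D and -0.08 in Ishikawa at 2 h, and AHRR of -0.12 and 0.13.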
